A study of Mus musculus with 4 samples.

Results

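The redox genes described here are 48 listed antioxidant and detoxifying enzymes and regulators of the transcription factor NRF2, read out in cells of 4T1, a mammary carcinoma line of the mouse. They were taken from the list by gene symbol: every probe set that the array's annotation pairs with a listed symbol and no other gene, and for each gene the brightest of its probe sets over the 4 arrays. Of the 48 genes, 45 had such a probe set among the 18193 genes named on the array, and 36 of these lay above the filter on dim probe sets and were tested among 11956 genes. The peroxiredoxin Prdx1 shares its probe sets with a second annotated gene, Gm21399, and is given no value. Prdx5 and Prdx6 were given no expression values here. The promoter windows of Prdx1 and Prdx5 are among those counted below. Total RNA of 2 samples of CD44v8-10-positive 4T1 cells and 2 samples of CD44v8-10-negative 4T1 cells was hybridised to 4 one-colour Affymetrix arrays. CD44v8-10 is a splice form of the surface receptor CD44 that carries variant exons. All samples were grown in serum-containing RPMI medium under normoxia and picked by hand under a dissecting microscope; how the cells were divided by CD44v8-10, and whether the samples came from separate cultures, is not given in the labels.

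NRF2, encoded by Nfe2l2, switches on genes whose promoters hold antioxidant response elements. In unstressed cells the adaptor KEAP1 hands it to a ubiquitin ligase for destruction, and oxidants or electrophiles that modify KEAP1 let it accumulate. Its target enzymes restore thiols through thioredoxin and glutathione, remove peroxides, reduce quinones and carbonyls, and attach glutathione to reactive compounds. Carcinoma cells are known to use these enzymes against oxidants, and CD44 variants have been linked to the same defence through cystine uptake.

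No tested redox gene differed between CD44v8-10-positive and CD44v8-10-negative cells past the threshold on adjusted p. With limma (two-sided) and Benjamini-Hochberg adjustment across all 11956 genes, 0 of the 36 tested genes were higher and 0 lower at an adjusted p under 0.05, where 9 of all genes, 0.0753%, were called higher and 0, or 0%, lower. At an unadjusted p under 0.05, 3 redox genes were lower in the positive cells and 0 higher; among all genes 1.76% were lower and 2.68% higher. The 3 were Akr1c13, an aldo-keto reductase, Mgst1, a membrane-bound glutathione transferase, and Nqo1. Nqo1 is the quinone reductase that is the most used readout of NRF2 activity. Without positive replicate 2 the log2 fold changes of Mgst1 and Nqo1 moved towards 0, to -0.32 and -0.44, while that of Akr1c13 was -1.21. Peroxiredoxins, superoxide dismutases, catalase and the abundant glutathione transferases had log2 fold changes close to 0 at their brightest probe sets.

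Across the 36 tested genes 27 lay below 0 and 9 above, with a median log2 fold change of -0.085, against 45.7% below 0 and a median of 0.028 over all genes tested. Fold changes here are positive minus negative on the log2(signal + 16) scale, which understates differences of dim genes. Quartiles were -0.24 and -0.0039, and 32 of the 36 genes lay within 0.5 of 0. The groups were separated, meaning that both positive arrays lay on the same side of both negative arrays, with the positive arrays lower in 9 genes, Blvrb among them, and higher in 2. Over all genes 13.8% were separated as lower and 18.5% as higher. The median stayed below that of all genes under each scaling: -0.28 against -0.15 with no scaling between arrays, -0.092 against 0.028 with arrays scaled to one trimmed mean, and -0.20 against -0.069 with arrays centred on their median. Under these scalings 34, 23 and 30 of the 36 lay below 0. With no scaling and with arrays centred on their median, the median of all genes was itself below 0. The shares of all genes below 0 were not counted under these scalings. The filter used the mean over all arrays, and the 36 genes that passed it do not stand for all 48. The list itself was chosen with earlier results of these data known, so its tilt is a description only.

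**Figure D1:**
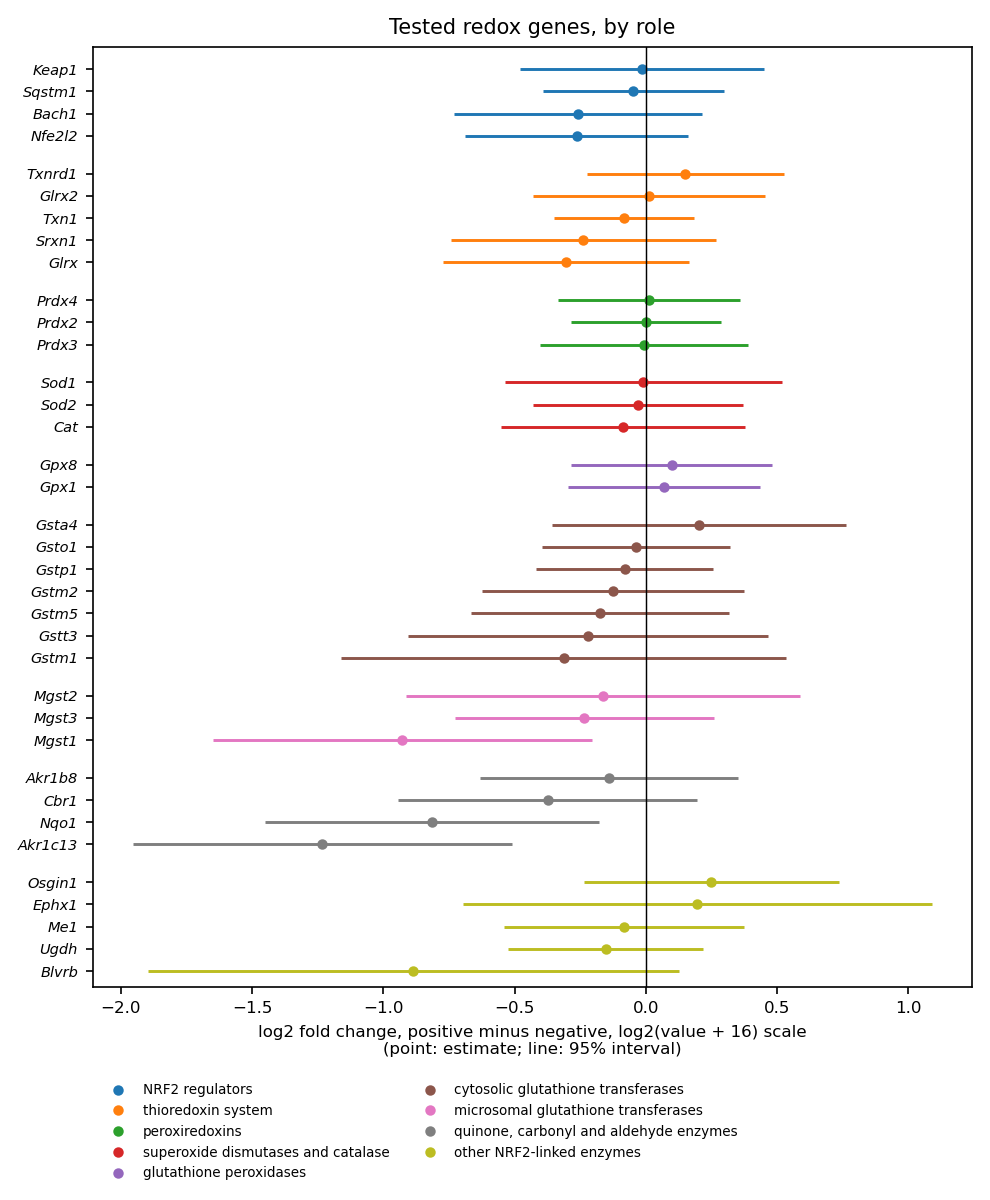
Log2 fold changes (positive minus negative, horizontal axis) of the 36 tested redox genes, one row per gene, coloured by role; points are limma estimates and lines their 95% intervals, from 2 positive and 2 negative arrays. The intervals of Akr1c13, Mgst1 and Nqo1 lie below 0, and those of the other genes include 0.

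The arrays differed in brightness before normalization, with trimmed mean intensities of 237 and 220 on the positive arrays, against 196 and 345 on the negative arrays, and were quantile normalized. Positive replicate 2 stood somewhat apart: its correlations with the other arrays were 0.968 to 0.972, against 0.980 to 0.985 among the other 3. The value without it is given below for each gene with a log2 fold change over 0.1 in size that moved by more than 1.5 times, or turned, when it was left out. All 6 epithelial markers (3 keratins, Cdh1, Epcam and Cldn4) were above the filter, with summed signals of 28512 and 29997 on the positive arrays, against 22779 and 27529 on the negative arrays. Those sums are mostly Krt8 and Krt18, with log2 differences of 0.057 and 0.081, while Epcam had 2309 and 2479 on the positive arrays, against 940 and 930 on the negative arrays (1.34). Cldn4 differed by 1.16, and the median of the 6 was 0.42. Of 9 macrophage markers 5 were above the filter. Signals summed over all 9 were 512 and 689 on the positive arrays, against 461 and 416 on the negative arrays. Their median log2 difference was 0.36, and Ptprc was below the filter on every array. Of 8 fibroblast markers 2 were above the filter. Sums over all 8 were 151 and 130 on the positive arrays, against 199 and 175 on the negative arrays. Pdgfra had a log2 difference of -0.94, and the median of the 8 was -0.040. Of 4 endothelial, 2 erythroid, 3 adipocyte and 4 lymphocyte markers on the array, 0 were above the filter. Endothelial sums were 74.4 and 65.9 on the positive arrays, against 18.6 and 29.2 on the negative arrays, all from probe sets below the filter. Cd44 itself had 3550 and 2841 on the positive arrays, against 3050 and 2827 on the negative arrays, and whether its probe set reads the variant exons was not tested. The part of other cell types in the results was not tested.

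Among the enzymes that reduce quinones, carbonyls and aldehydes, all 4 tested genes lay below 0. Akr1c13, an aldo-keto reductase of hydroxysteroids and xenobiotic carbonyls, had normalized signals of 24.2 and 19.9 on the positive arrays, against 74.7 and 71.7 on the negative arrays. The positive arrays sat at about the filter level of 19.4, where signals are not told apart from background, and the negative arrays above it, with no overlap. The size of its difference is therefore not exact: the log2 fold change was -1.23 ± 0.33 (SE), with a 95% interval of -1.96 to -0.51, an unadjusted p of 0.00287 and an adjusted p of 0.609 by limma. The estimate was -1.21 without positive replicate 2 and -1.33 without positive replicate 1, and it was -1.70 with a pseudocount of 1 and -0.67 with 64. The adjusted p lay between 0.202 and 1.00 over the 14 alternatives that gave one. Akr1c13 belongs to a cluster of closely similar genes, and whether its probe set tells them apart was not tested.

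Nqo1, which reduces quinones by transferring a pair of electrons at once, had signals of 109 and 57.9 on the positive arrays, against 152 and 155 on the negative arrays. The negative arrays nearly coincided, and both positive arrays were lower but far from each other. The log2 fold change was -0.81 ± 0.29 (95% interval -1.45 to -0.18, unadjusted p 0.0165, limma adjusted p 0.985), and was -0.44 without positive replicate 2. Carbonyl reductase 1, Cbr1, had 144 and 103 on the positive arrays, against 186 and 142 on the negative arrays, with a log2 fold change of -0.37 (-0.94 to 0.20), or -0.16 without positive replicate 2, and overlapping groups. The aldose reductase relative Akr1b8 had -0.14 (-0.63 to 0.35) and 0.040 without positive replicate 2. Cbr3 and the aldehyde dehydrogenase Aldh3a1, both classical NRF2 targets, were below the filter.

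**Figure D2:**
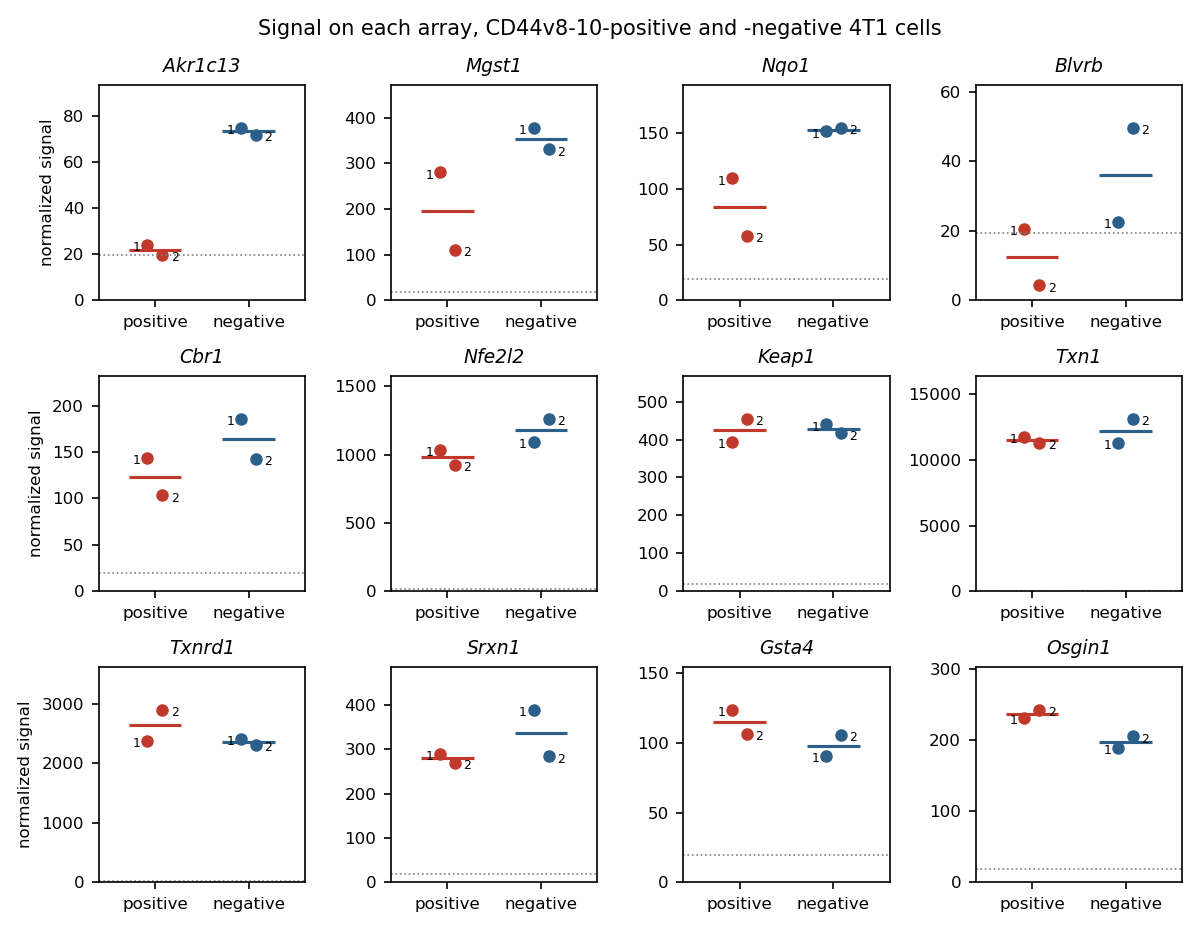
Normalized signals (linear vertical axes from 0) of 12 redox genes in the 2 CD44v8-10-positive samples (red, left) and 2 CD44v8-10-negative samples (blue, right); the digits are replicate numbers, the bars group means and the dotted line the filter level of 19.4. Akr1c13, Mgst1, Nqo1 and Blvrb have both positive samples below both negative samples, with positive replicate 2 lowest in each; Blvrb passed the filter only through the negative samples.

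The 3 microsomal glutathione transferases, membrane proteins that detoxify lipid peroxides and electrophiles or make leukotriene C4, all lay below 0. Mgst1 had 280 and 111 on the positive arrays, against 378 and 330 on the negative arrays. The groups did not overlap, but the gap between the positive arrays was wider than the gap between the groups. Its log2 fold change was -0.93 ± 0.33 (95% interval -1.65 to -0.21, unadjusted p 0.0159, limma adjusted p 0.985). It was -0.32 without positive replicate 2, and -1.53 without positive replicate 1, where the limma adjusted p was 0.0547, the lowest of its 15 alternatives, which ranged up to 1.00. A second Mgst1 probe set was below the filter. Mgst3 had -0.23 (-0.73 to 0.26) and 0.011 without positive replicate 2, and Mgst2 -0.16 (-0.91 to 0.59) and -0.58 without it.

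**Figure D3:**
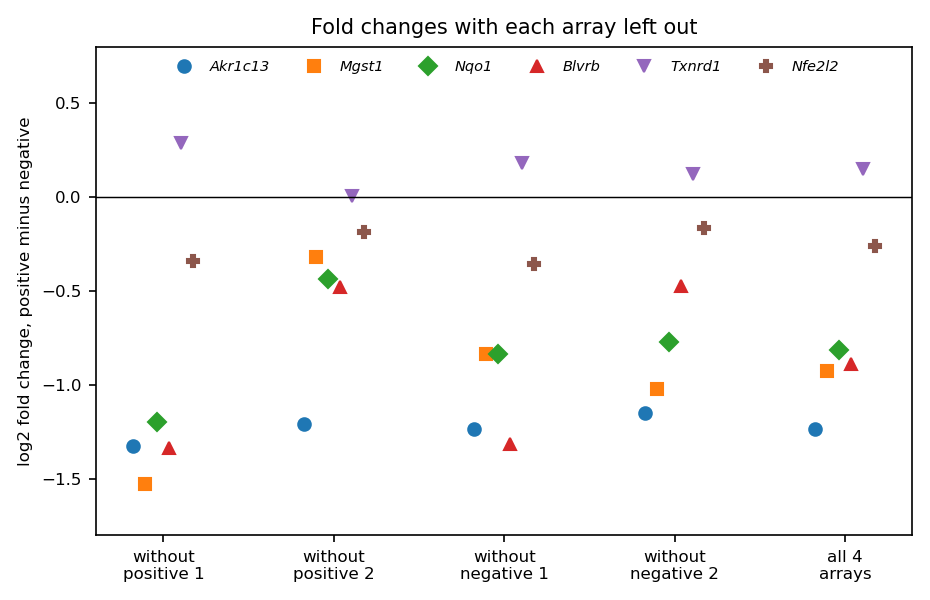
Log2 fold changes (positive minus negative, vertical axis) of 6 redox genes with each array left out in turn and with all 4 arrays (right). Akr1c13 keeps a value near -1.2 throughout, whereas Mgst1, Nqo1 and Blvrb move towards 0 when positive replicate 2 is left out, to -0.32, -0.44 and -0.48.

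The promoters of the 3 genes are shown because antioxidant response elements are the sequences through which NRF2 is known to act. Each is the RefSeq window on build GRCm38.p6 that runs from 250 bases before to 50 after the transcript start, written in the direction of transcription. Capitals mark matches to the core of the element, TGACNNNGC, searched on both strands.
Akr1c13, chr13:4190937-4191236, plus strand: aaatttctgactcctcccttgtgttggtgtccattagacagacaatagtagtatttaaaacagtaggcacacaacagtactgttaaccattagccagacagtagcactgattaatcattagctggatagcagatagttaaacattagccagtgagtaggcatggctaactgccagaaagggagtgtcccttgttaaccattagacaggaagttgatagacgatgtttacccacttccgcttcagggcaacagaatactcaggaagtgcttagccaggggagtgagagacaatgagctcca
Mgst1, chr6:138140277-138140576, plus strand: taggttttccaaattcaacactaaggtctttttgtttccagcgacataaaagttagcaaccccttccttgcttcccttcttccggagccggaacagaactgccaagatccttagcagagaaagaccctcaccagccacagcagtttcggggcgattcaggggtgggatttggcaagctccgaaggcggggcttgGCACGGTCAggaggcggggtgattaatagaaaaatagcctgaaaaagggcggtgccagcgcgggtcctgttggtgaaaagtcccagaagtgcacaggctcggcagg
Nqo1, chr8:107403156-107403455, minus strand: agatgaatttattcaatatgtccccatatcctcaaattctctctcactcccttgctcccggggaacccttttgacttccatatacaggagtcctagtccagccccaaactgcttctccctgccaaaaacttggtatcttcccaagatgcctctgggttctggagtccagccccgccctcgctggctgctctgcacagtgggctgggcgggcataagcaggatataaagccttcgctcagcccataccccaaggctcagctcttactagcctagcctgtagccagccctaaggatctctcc
The Mgst1 window held 1 match, on the opposite strand at positions -56 to -48 from the start, and a second start of Mgst1 had none. The Nqo1 and Akr1c13 windows held none, which says only that these letters are not in these 300 bases.

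Over the whole list 43 genes had a window, and 10 of them, 23.3%, held a match in at least 1 window, against 14.0% of the 27025 genes in the table. Counted by window the shares were 18.5% of 54 and 12.4% of 32851. Matched sites of several of these genes are shown so that their cores can be compared, turned so that the core reads forward, with 8 bases on either side in lower case.
Nfe2l2: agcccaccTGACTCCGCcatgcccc
Txnrd1: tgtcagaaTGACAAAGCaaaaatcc
Srxn1: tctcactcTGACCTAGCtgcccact
Prdx1: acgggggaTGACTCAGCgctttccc
Me1: tgccgccgTGACTCAGCgcttctcg
Gstm5: ccgcccacTGACCACGCggagggcg
Ugdh: ggagcccgTGACTTAGCtggagctg
Me1 and Prdx1 share the core TGACTCAGC, the form that the dimer of NRF2 and a small MAF protein is known to favour. The log2 fold change of Me1 was -0.083 at its brightest probe set and 0.54 at its dimmer one. At their brightest probe sets the 8 tested genes with a match, which also include Sod1, had log2 fold changes between -0.93 (Mgst1) and 0.15 (Txnrd1). Their dimmer probe sets above the filter went both ways, from -0.54 (Nfe2l2) to 0.64 (Srxn1). A match is a description of letters and not a site of binding.

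The regulators of the pathway had log2 fold changes below 0 in all 4 tested probe sets. Nfe2l2 had 1037 and 924 on the positive arrays, against 1097 and 1264 on the negative arrays. Its 2 probe sets gave -0.26 (95% interval -0.69 to 0.16, limma adjusted p 0.985) and -0.54, both with separated groups. The second was dim, with 25.8 and 27.9 on the positive arrays, against 51.1 and 42.0 on the negative arrays. Bach1, the repressor that occupies the same DNA elements, had 486 and 382 on the positive arrays, against 509 and 529 on the negative arrays, a log2 fold change of -0.26 (-0.73 to 0.22) that was -0.091 without positive replicate 2. Its dimmer probe set gave -0.58 with overlapping groups. Keap1 had 394 and 455 on the positive arrays, against 440 and 416 on the negative arrays, which overlapped, and a log2 fold change of -0.015 (-0.48 to 0.45). Its dimmer probe set gave -0.16 with separated groups, at 216 and 234 on the positive arrays, against 265 and 243 on the negative arrays. Sqstm1, the autophagy receptor p62 that pulls KEAP1 away from NRF2, had -0.047 (-0.39 to 0.30) by its bright probe set and 0.29 by its dim one. NRF2 is controlled mainly as a protein, and mRNA levels of these genes do not measure its activity.

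Thioredoxin and its partners, which keep protein thiols reduced, included 2 genes, Txn1 and Srxn1, whose probe sets did not point one way. Txn1 had 11701 and 11275 on the positive arrays, against 11275 and 13105 on the negative arrays. The log2 fold change was -0.082 (95% interval -0.35 to 0.18), but 0.14 with arrays scaled to one trimmed mean, 0.026 with arrays centred on their median, and 0.75 by its dim second probe set. Txnrd1, the selenoprotein reductase that recharges thioredoxin with electrons of NADPH, had 2370 and 2897 on the positive arrays, against 2412 and 2308 on the negative arrays. Its log2 fold change was 0.15 (-0.23 to 0.53, limma adjusted p 0.985), which was -0.034 with no scaling and 0.0059 without positive replicate 2. The other 2 Txnrd1 probe sets gave 0.47, with 641 and 768 on the positive arrays, against 594 and 423 on the negative arrays, and 0.60, both separated; positive replicate 2 was the highest array in all 3.

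Srxn1, sulfiredoxin, which repairs overoxidised peroxiredoxins, had 290 and 269 on the positive arrays, against 389 and 284 on the negative arrays. The groups overlapped, with negative replicate 1 the highest array. The log2 fold change was -0.24 (95% interval -0.74 to 0.27). Its 4 probe sets gave -0.24, -0.021, 0.52 and 0.64. Glutaredoxin, Glrx, which removes glutathione from protein thiols, was lower in both of its probe sets. The tested one had 270 and 258 on the positive arrays, against 332 and 328 on the negative arrays, or -0.30 on the log2 scale (-0.77 to 0.16, limma adjusted p 0.985), and the other gave -0.52. The mitochondrial Glrx2 had 0.013 (-0.43 to 0.45), which was -0.18 with no scaling and -0.10 with arrays centred on their median.

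**Figure D4:**
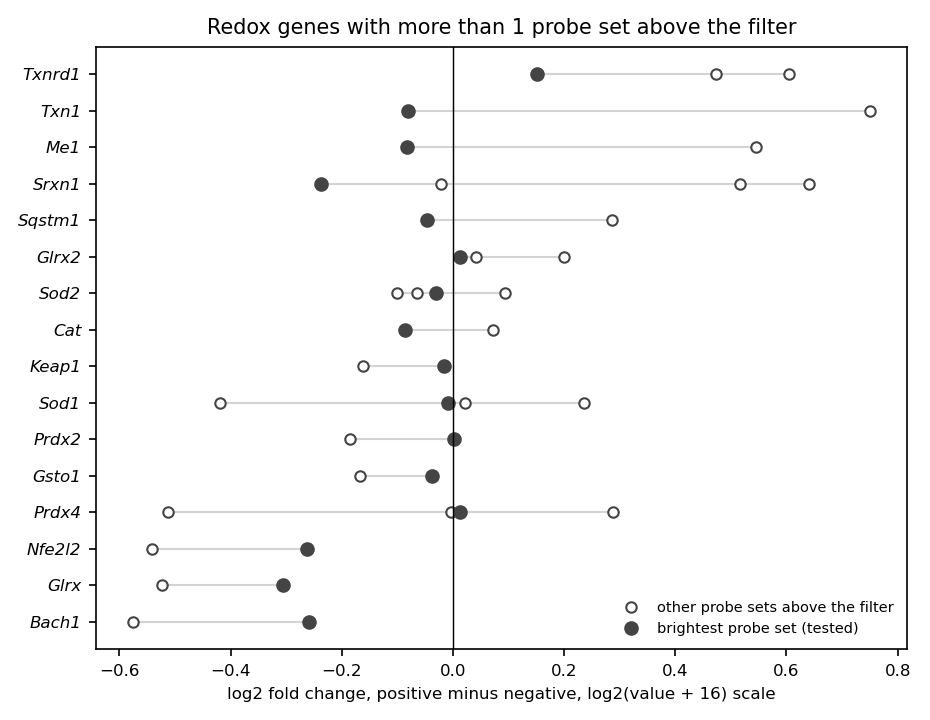
Log2 fold changes (positive minus negative, horizontal axis) of each probe set above the filter for the 16 redox genes that had more than 1; filled points are the brightest probe sets, which were tested, and open points the others. In 9 genes the probe sets lie on both sides of 0, in 5 all lie below and in 2, Txnrd1 and Glrx2, all lie above.

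Of 16 redox genes with more than 1 probe set above the filter, the probe sets disagreed in direction in 9. All were below 0 for 5 genes, Nfe2l2, Keap1, Bach1, Glrx and Gsto1, and all above 0 for 2, Txnrd1 and Glrx2. The widest span was that of Srxn1, followed by Txn1 and Prdx4. Where in each transcript the probe sets lie was not analysed here.

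Enzymes that remove peroxide and superoxide had log2 fold changes close to 0 at their brightest probe sets. For Sod1 and Prdx4 the probe sets above the filter spread more widely, from -0.42 to 0.24 and from -0.51 to 0.29. The peroxiredoxins Prdx2 and Prdx4, of the cytosol and the endoplasmic reticulum, had 0.0012 (95% interval -0.29 to 0.29) and 0.013 (-0.33 to 0.36), and the mitochondrial Prdx3 had -0.0056 (-0.40 to 0.39). Prdx2 and Prdx4 turned negative, to -0.099 and -0.15, with no scaling, and to -0.019 and -0.068 with arrays centred on their median. Prdx2 had 6976 and 6618 on the positive arrays, against 6672 and 6908 on the negative arrays. Manganese superoxide dismutase, Sod2, the mitochondrial form, had -0.030 (-0.43 to 0.37), and the copper-zinc form Sod1 -0.0089 (-0.54 to 0.52), which was 0.077 with one trimmed mean. Catalase, Cat, the peroxisomal enzyme, had -0.087 (-0.55 to 0.38). Intervals that include 0 do not show that the levels were equal.

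The glutathione peroxidases, which spend glutathione on peroxides, were represented by Gpx1 and Gpx8. The selenoprotein Gpx1 had 4943 and 4990 on the positive arrays, against 5553 and 4035 on the negative arrays, which enclosed them. Its log2 fold change was 0.069 (95% interval -0.30 to 0.44) and -0.061 with no scaling. Gpx8, a form of the endoplasmic reticulum, had 1987 and 1937 on the positive arrays, against 1962 and 1709 on the negative arrays, with 0.098 (-0.28 to 0.48) and -0.092 with no scaling. The epithelial Gpx2, the secreted Gpx3 and Gpx7 were below the filter.

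Of the 7 tested cytosolic glutathione transferases among the 48 listed genes, 6 lay below 0, with a median of -0.12 and a range from -0.31 to 0.20. The abundant Gstp1 had -0.081 (95% interval -0.42 to 0.26), with signals of 4282 and 4980 on the positive arrays, against 4505 and 5296 on the negative arrays. Gsto1, the omega form that also reduces dehydroascorbate, had -0.038 (-0.40 to 0.32) and 0.015 with one trimmed mean. The mu forms Gstm2 and Gstm5 had -0.12 and -0.17, both with separated groups, and Gstm1 -0.31 (-1.16 to 0.54) by a probe set whose identifier marks possible cross-hybridisation. The theta form Gstt3 had -0.22 (-0.91 to 0.46). Without positive replicate 2, Gstm5 was -0.022, Gstm1 0.21 and Gstt3 0.075. Gsta4, the alpha form with high activity towards the lipid aldehyde 4-hydroxynonenal, was the exception: 124 and 107 on the positive arrays, against 90.4 and 106 on the negative arrays gave 0.20 (-0.36 to 0.76), or -0.018 with no scaling. Gsta4 was the exception only among these 7. Further mu forms were read in a separate list of other glutathione-dependent enzymes, where 5 of 8 tested genes lay below 0. There Gstm3 had 0.72 (-0.088 to 1.52, limma adjusted p 0.985) with separated groups, and Gstm7 had -0.20 with overlapping groups. The alternatives were not run for Gstm3 and Gstm7. Close paralogs in this family may share signal.

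The remaining NRF2-linked enzymes went both ways. Blvrb, which reduces flavins and biliverdin, had 20.5 and 4.30 on the positive arrays, against 22.6 and 49.7 on the negative arrays. The mean log2 value of the positive arrays, 4.77, was below the filter level of 5.15 and that of the negative arrays, 5.65, above it. Blvrb was thus tested only through the group where it is higher, and its separation supports nothing; its log2 difference was -0.89 (95% interval -1.90 to 0.13, limma adjusted p 0.985), and was -1.70 with a pseudocount of 1, -0.38 with 64, and -0.48 without positive replicate 2. Osgin1, an oxidative stress-induced growth inhibitor, had the highest log2 fold change of the 36 tested genes, with 231 and 242 on the positive arrays, against 189 and 205 on the negative arrays. Its groups did not overlap, and it gave 0.25 (-0.24 to 0.74, limma adjusted p 0.985). The epoxide hydrolase Ephx1 had 30.1 and 18.7 on the positive arrays, against 20.5 and 17.4 on the negative arrays, and 0.20 (-0.70 to 1.09), or 0.41 without positive replicate 2; its mean was above the filter only in the positive group. Me1, the cytosolic malic enzyme that makes NADPH, had -0.083 (-0.54 to 0.38), with separated signals of 184 and 195 on the positive arrays, against 130 and 119 on the negative arrays at its dimmer probe set, which gave 0.54. Ugdh, which supplies UDP-glucuronate, had -0.15 (-0.52 to 0.22).

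The 9 genes below the filter were Sod3, Gpx2, Gpx3, Gpx7, Gsta3, Gstt1, Gstt2, Cbr3 and Aldh3a1. Their normalized signals on the 4 arrays ran from 0.95 to 37.5, and the highest mean over the arrays was 19.5, for Gpx2. The highest single values were 37.5 for Gpx2 on positive replicate 2, 31.5 for Gpx2 on negative replicate 1 and 23.0 for Gpx3 on positive replicate 1. Signals at this level are not told apart from background here, and no fold is given.

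Other genes of the same chemistry were read from 8 further lists of 103 genes, of which 82 were tested. None was called (limma, adjusted p, 0 of 82), 2 were lower at an unadjusted p under 0.05 and 0 higher, with 44 below 0, 38 above it and a median of -0.0044. The 2 are 2.44% of the 82, near the 1.76% of all genes that were lower at this p. They were Idh1, the cytosolic isocitrate dehydrogenase that yields NADPH, and Ptgr1, a reductase of prostaglandins and alkenals that is also an NRF2 target. Idh1 had 2216 and 1873 on the positive arrays, against 2660 and 2766 on the negative arrays, and the log2 difference was -0.41 (95% interval -0.78 to -0.037, unadjusted p 0.0338, limma adjusted p 0.985), or -0.29 without positive replicate 2. Ptgr1 had 510 and 367 on the positive arrays, against 626 and 626 on the negative arrays, with -0.52 (-1.01 to -0.027, unadjusted p 0.0401, limma adjusted p 0.985), or -0.29 without positive replicate 2. NADPH supply had 6 of 9 tested genes below 0 and a median of -0.16. Other quinone, carbonyl and aldehyde enzymes had 9 of 15 below 0 and a median of -0.075, glutathione synthesis and recycling 4 of 8 and 0.0095, and partners and degradation factors of NRF2 4 of 9 and 0.059. The heme, iron and efflux targets of NRF2 had a median of 0.022, with 4 of 8 below 0. With 2 arrays per group precision is limited, and the p-values reflect the spread of these arrays alone, part of which may be technical. In bulk RNA fewer cells with a transcript and less of it per cell cannot be told apart.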

How the data were processed

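Total RNA of 2 CD44v8-10-positive and 2 CD44v8-10-negative 4T1 samples, grouped by their labels, was measured on one-colour Affymetrix arrays. The deposited values were linear intensities, 1 per probe set and array, for 45101 probe sets. The submitters' processing notes name GCOS without a role; summary method, background correction and scaling were not given in these sources. Since the 2% trimmed means of the deposited intensities differed by more than 5%, arrays were quantile normalized and transformed as log2(value + 16).

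After removal of 64 control probe sets, those with a mean log2 value below the 40th percentile (a log2 value of 5.15, or a signal of 19.4) were left out, and the brightest probe set of each gene was kept. Names came from the platform's annotation of 2016, in which 34945 probe sets had 1 symbol, 932 several and 9160 none. Groups were compared across all 11956 genes in limma 3.58.1 (R 4.3.3), by lmFit and trended eBayes, with two-sided p-values adjusted by Benjamini-Hochberg at 0.05 and the code first tested on simulated data. Promoter windows and sequences came from RefSeq, build GRCm38.p6. The members, gene lists and the rule for named genes were chosen with earlier results of these data known. Genes given array by array were those with an unadjusted p under 0.05, the 5 highest and 5 lowest log2 fold changes, and Nfe2l2, Keap1, Nqo1, Txnrd1, Txn1 and Srxn1 whatever their values; Bach1, Glrx, Prdx2, Gpx1, Gstp1, Sod1, Prdx4, Gpx2, Gpx3 and further probe sets were added after their values were seen. Alternatives were other scalings, pseudocounts of 1 and 64, other filters, probe sets averaged per gene, _x_at and _s_at probe sets left out, no intensity trend, a replicate block and leaving out each array.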

Additional observations from a re-analysis of the deposited data

How the results depend on the processing

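None of the redox genes was called in any of the 15 alternatives (limma, 0 each). The count at an unadjusted p under 0.05 was 3, was 1 with no scaling and lay between 1 and 4 when each array was left out, lowest without positive replicate 2. Outside the main fit the shares of all genes at this unadjusted p were not counted. The counts of redox genes in the alternatives therefore cannot be set against a background. With an array left out, the lone array of its group is assumed to vary like the other group. Then between 22 and 24 of the 36 lay below 0, and the shares of all genes below 0 were not counted in these fits. The median of the redox genes was -0.28 with no scaling and -0.20 with arrays centred on their median. It was -0.18 without negative replicate 1, against -0.085 with all arrays. In the same order, the medians of all genes were -0.15, -0.069, 0.032 and 0.028. Over all genes, 3 were called higher with no scaling, 20 with arrays centred on their median (and 5 lower), 3 with no filter, 2 without the intensity trend, 15 with the replicate block (and 3 lower), and 6 to 19 higher and 0 to 2 lower with each array left out. Arrays of the same number share only that number in the labels, and the deviations of the same-numbered arrays from their group means correlated at 0.12; the block changed no call among redox genes.

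Of the 36 tested genes, 12 had the same direction in all alternatives run, among them Akr1c13, Mgst1, Nqo1, Cbr1, Glrx, Nfe2l2 and Bach1, and 24 turned, none of them over 0.31 in size. The cause was not tested. With no scaling Txnrd1 was -0.034, Glrx2 -0.18, Prdx2 -0.099, Prdx4 -0.15, Gpx1 -0.061, Gpx8 -0.092 and Gsta4 -0.018. With one trimmed mean Sqstm1 was 0.031, Txn1 0.14, Sod1 0.077 and Gsto1 0.015. With arrays centred on their median Txn1 was 0.026, Glrx2 -0.10, Prdx2 -0.019, Prdx4 -0.068 and Gpx8 -0.012. With probe sets averaged per gene Sqstm1 was 0.12, Txn1 0.33, Srxn1 0.22, Prdx2 -0.092, Prdx4 -0.054 and Me1 0.23. With _x_at and _s_at probe sets left out Sod1 was 0.24. With each array left out the lowest and highest values were -0.12 and 0.085 for Keap1, -0.18 and 0.094 for Sqstm1, -0.18 and 0.030 for Txn1, -0.029 and 0.056 for Glrx2, -0.037 and 0.038 for Prdx2, -0.19 and 0.17 for Prdx3, -0.068 and 0.090 for Prdx4, -0.41 and 0.42 for Sod1, -0.10 and 0.041 for Sod2, -0.28 and 0.11 for Cat, -0.17 and 0.29 for Gpx1. They were -0.00079 and 0.20 for Gpx8, -0.83 and 0.21 for Gstm1, -0.20 and 0.036 for Gstp1, -0.20 and 0.11 for Gsto1, -0.52 and 0.075 for Gstt3, -0.58 and 0.23 for Mgst2, -0.47 and 0.011 for Mgst3, -0.37 and 0.085 for Akr1b8, -0.18 and 0.012 for Me1, -0.0086 and 0.41 for Ephx1. A filter at the 60th percentile left 30 redox genes, without Akr1c13 and Blvrb. Idh1 and Ptgr1, whose alternatives were chosen after seeing the data, were below 0 in all those run. Signals near the filter level limit Akr1c13, Blvrb and Ephx1.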

Other observations

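At its 2 brightest probe sets the Sod1 signal followed the replicate number of the arrays and not their group. Its brightest probe set gave 3150 and 4376 on positive replicates 1 and 2, against 2814 and 4959 on negative replicates 1 and 2. A second probe set showed the same pattern more widely, with 2050 and 4931 on the positive arrays, against 1845 and 3942 on the negative arrays. A further probe set went the other way, with 336 and 211 on the positive arrays, against 408 and 320 on the negative arrays. The dimmest one above the filter was nearly flat, with 78.5 and 72.6 on the positive arrays, against 76.0 and 72.3 on the negative arrays. Within either number the positive and negative arrays of the brightest probe set were closer to each other than to the other array of their own group.

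One Prdx4 probe set stood apart on a single array: it gave 879 and 885 on the positive arrays, against 708 and 2249 on the negative arrays, while the brightest Prdx4 probe set gave 3062 and 3237 on the positive arrays, against 3291 and 2957 on the negative arrays. The cause was not tested.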
